A study of Rattus norvegicus with 4 samples.

Results

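The LIF and IL-6 family was followed through its ligands Lif and Il6, the receptor chains Lifr, Il6r, Il6st and Osmr, the kinases Jak1 and Jak2, the transcription factor Stat3 and the feedback inhibitor Socs3. Members were the probe sets whose platform gene symbol was exactly 1 of these 10 genes. There were 15 such probe sets, for 9 genes, among 31042 probe sets on the array, of which 20826 carry a single gene symbol. Osmr, the receptor chain of oncostatin M, had no probe set under its own symbol and is not analysed here. The genes were selected on their signals on these same 4 arrays, compared by treatment and by replicate number, so those values are given as a description. Where members are counted past a threshold of a fit over the whole array, the count stands beside the share of all probe sets and is no independent test of the family.

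The cytokines of this family signal through Il6st, the shared receptor chain also called gp130. LIF joins Lifr to Il6st, whereas interleukin 6 first binds Il6r and then brings Il6st chains together. Jak1, Jak2 and related kinases attached to the receptors then phosphorylate Stat3, which enters the nucleus and induces genes that include Socs3, and Socs3 in turn blocks the receptor and its kinases. In the neonatal rat ovary LIF is known as a granulosa cell product that, when added to cultured ovaries, promotes the passage of primordial follicles to the primary stage.

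Whole ovaries of 4-day-old female rat pups were cultured for 2 days on floating filters, either with GDNF (glial cell line-derived neurotrophic factor, which binds the co-receptor Gfra1 and activates the receptor Ret) or with no factor. All cultures shared a serum-free DMEM and Ham's F-12 medium with bovine serum albumin, Albumax, insulin at 200 ng/ml, ascorbic acid, transferrin and antibiotics. There were 2 GDNF and 2 control samples, each the RNA of 6 to 10 pooled ovaries on 1 Affymetrix array, and no animal gave both ovaries to a group. Groups were taken from the sample titles, since the treatment text of every sample, GDNF samples included, describes untreated ovaries, and the sources used here give neither the GDNF dose nor the rat strain. The labels number the samples of each group 1 and 2 without saying what the number marks, and the samples were compared by treatment and by that number. Nothing states separate litters or culture days, so the spread between samples may be technical.

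Values are MAS5 signals, a linear brightness per probe set. The mean of the signals left after trimming 2% at each end was 125.03 or 125.04 on every array, and the median signal lay between 36.7 and 41.1. Of the ovarian markers that had a probe set, 7 of 7 oocyte genes and 11 of 12 granulosa genes lay above the signal filter. So did 9 of 9 stromal markers and 18625 of all 31042 probe sets, so passing it does not by itself identify the tissue. Differences are in log2(signal + 1), and tests were run on the 18625 probe sets whose mean reached the 40th percentile, a signal of about 21.4. Of the 15 probe sets of the family, 11 passed that filter, for Il6r, Il6st, Stat3, Socs3, Jak1 and Jak2. The 4 for Lif, Lifr and Il6 lay below it. With 2 samples a group, an exact permutation test of a single value cannot give a two-sided p below 0.333.

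Il6st separated the replicate numbers far more than the treatments. Its probe set 1370957_at had a signal of 599 with GDNF and 398 in control among the replicate 1 samples, against 129 with GDNF and 144 in control among the replicate 2 samples. Both replicate 1 samples were thus well above both replicate 2 samples, whatever the treatment. The mean was 499 ± 142 in replicate 1 and 136 ± 10.6 in replicate 2 samples (SD, n = 2 each), a 3.66-fold difference and a log2 difference of 1.84. The difference was 2.21 within the GDNF samples and 1.46 within the control samples. By size it ranked 20th among the 18625 probe sets tested.

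The 3 other Il6st probe sets differed much less. Probe set 1371926_at, the brightest on average, had 533 with GDNF and 508 in control in replicate 1, against 445 and 451 in replicate 2 (log2 difference 0.21). Probe set 1373140_at had 306 with GDNF and 265 in control in replicate 1, against 201 and 192 in replicate 2 (0.54). In both of these, as in 1370957_at, the replicate 1 samples did not overlap the replicate 2 samples. Probe set 1383489_at had 103 with GDNF and 67.4 in control in replicate 1, against 63.1 and 67.5 in replicate 2 (0.35), so that GDNF replicate 1 alone stood high and the control samples were alike. The size of the replicate difference of Il6st therefore depends on the probe set, and the sources used here do not say which part of the transcript each one covers.

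**Figure D1:**
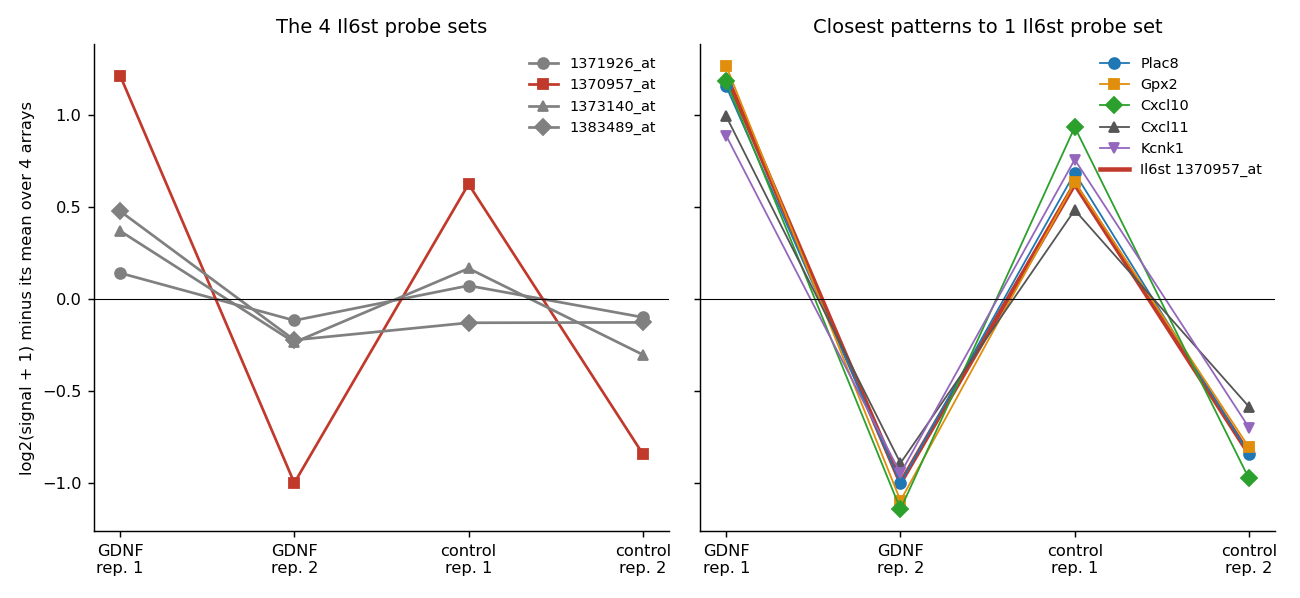
Log2(signal + 1) of each probe set minus its own mean over the 4 arrays, by array. Left, the 4 Il6st probe sets, where 1370957_at (red) swings between replicate 1 and replicate 2 samples by 1.84 and the others by 0.21 to 0.54. Right, the same Il6st probe set (thick red) and the 5 closest patterns among tested probe sets with 1 gene symbol outside the family.

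Patterns over the 4 arrays were compared for the tested probe sets with 1 gene symbol outside the family. Those closest to Il6st 1370957_at were of Plac8, Gpx2, Cxcl10, Cxcl11 and Kcnk1. Closeness was the root mean square distance between centred log2 signals, which was 0.043 for Plac8, 0.057 for Gpx2, a glutathione peroxidase of epithelia, 0.18 for the interferon-induced chemokine Cxcl10, 0.19 for the related chemokine Cxcl11 and 0.19 for the potassium channel Kcnk1. Plac8 had a signal of 361 with GDNF and 260 in control in replicate 1, against 80.3 and 89.8 in replicate 2. Cxcl10 had 240 and 201 in replicate 1, against 47.1 and 53.0 in replicate 2. Among the other probe sets of the family, the dim Il6 lay at 0.37, Il6r at 0.60 and Stat3 1370224_at at 0.64, and the remaining ones lay further off. The distance depends on the size of a swing as well as on its order. Il6r, whose control signals were alike (28.9 and 28.5), lay closer than Il6st 1373140_at (0.67), which was higher in replicate 1 in both treatments. The likeness rests on 4 arrays and describes them only.

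Stat3, the transcription factor activated by this receptor, also separated the replicate numbers in both of its probe sets. Probe set 1370224_at had a signal of 577 with GDNF and 561 in control in replicate 1, against 369 and 373 in replicate 2. The mean was 569 ± 10.7 in replicate 1 and 371 ± 2.90 in replicate 2 samples (SD, n = 2 each), a 1.53-fold difference and a log2 difference of 0.62, with 0.64 within GDNF and 0.59 within control samples. Between treatments the same probe set differed by 0.01. Probe set 1371781_at had 280 with GDNF and 325 in control in replicate 1, against 231 and 256 in replicate 2 (0.31), and the numbers again did not overlap.

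Among the ligands, Il6 was dim but had the same order. It had a signal of 19.4 with GDNF and 11.5 in control in replicate 1, against 6.5 and 3.5 in replicate 2, a log2 difference of 1.46, and of 1.44 within GDNF and 1.47 within control samples. Its signal with GDNF was also the higher one within each number, by 0.71 in replicate 1 and 0.74 in replicate 2, although the treatments overlapped. Every one of these signals lay below the filter. Of the 12417 probe sets below the filter, 24.7% had both replicate 1 samples above both replicate 2 samples. Of the 4 dim probe sets of the family, 1 did, namely Il6, and 1 was reversed, against 10.8% reversed in all.

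The promoter windows of Stat3 and Il6 are shown because both genes separated the replicate numbers. In both, the RefSeq start used also lies at or near the outermost annotated start of the gene. Each window runs from 250 bases before to 50 bases after that start in GRCr8, and capitals mark the motif matches found. They are chr10:86363310-86363609 on the minus strand for Stat3 and chr4:5894526-5894825 on the minus strand for Il6.
Stat3: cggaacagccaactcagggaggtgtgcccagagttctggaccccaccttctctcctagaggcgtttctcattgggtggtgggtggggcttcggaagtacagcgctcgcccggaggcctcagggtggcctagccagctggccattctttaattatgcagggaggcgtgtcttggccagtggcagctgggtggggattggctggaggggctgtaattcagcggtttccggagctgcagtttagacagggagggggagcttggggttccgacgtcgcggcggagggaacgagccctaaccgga
Il6: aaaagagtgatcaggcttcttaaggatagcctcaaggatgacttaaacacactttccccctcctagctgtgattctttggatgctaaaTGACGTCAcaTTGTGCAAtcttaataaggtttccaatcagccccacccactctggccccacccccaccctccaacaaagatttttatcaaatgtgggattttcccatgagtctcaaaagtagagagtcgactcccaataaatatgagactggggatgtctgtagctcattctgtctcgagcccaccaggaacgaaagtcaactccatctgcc
The Il6 window holds a cAMP response element, TGACGTCA, that starts 162 bases before the start, and a C/EBP-type motif, TTGCNNAA, matched on the opposite strand, that starts at 152 bases before it. These are the bases in capitals, and the 2 matches do not overlap. The same letters occur, on either strand, in 1.83% and 10.6% of the 33469 rat promoter windows of that length. The palindromic STAT motif TTCNNNGAA occurs in 8.87% of windows and in none of the 8 windows held for the family. AP-1 (TGANTCA, in 7.33% of windows) and the GC box (GGGCGG, in 33.1%) were also searched on both strands, and neither matched in Stat3 or Il6. The Stat3 window holds none of the 5 motifs. Lif and Jak1 had no window in the table. For Il6st, Lifr, Il6r and Socs3, the RefSeq start used lies 1207 to 11602 bases inside the outermost annotated start of the gene. Their windows may therefore not hold the promoter in use.

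Lif itself was the member with the widest gap between treatments, at the bottom of the signal range. It had a signal of 9.0 and 7.6 in GDNF samples, against 1.8 and 1.8 in control samples. Both GDNF samples lay above both control samples, by a log2 difference of 1.73, with 1.84 within replicate 1 and 1.62 within replicate 2. All 4 signals were below the filter of about 21.4, so Lif was left out of the main fit. In the alternative fit without a filter, all 15 probe sets of the family were tested by treatment. There 0 of them, Lif included, passed limma's adjusted threshold. Of the 12417 probe sets below the filter, 14.4% had both GDNF samples above both control samples, and 1.3%, which is 162 probe sets, did so by at least the difference of Lif. Detection calls were not used here, and whether Lif was detected on any array is not known.

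Lifr, which pairs with Il6st to receive LIF, was dim in both of its probe sets, and they disagreed. Probe set 1369228_at had 15.3 and 6.0 in GDNF samples, against 13.4 and 14.0 in control samples, so that GDNF replicate 2 stood low. Probe set 1395957_at had 10.7 with GDNF and 8.7 in control in replicate 1, against 13.8 and 13.9 in replicate 2, and was the 1 member with both replicate 1 samples below both replicate 2 samples. Il6r, the receptor chain that binds interleukin 6, had 44.3 and 15.2 in GDNF samples, against 28.9 and 28.5 in control samples. Its GDNF samples thus lay on either side of a narrow control pair, with a log2 difference from control of 0.60 in replicate 1 and -0.86 in replicate 2. Its mean was close to the filter.

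The GDNF samples of the kinase Jak2 and of 1 Jak1 probe set likewise lay on either side of the control samples. Jak2 had a signal of 242 and 136 in GDNF samples, against 196 and 203 in control samples, with a log2 difference from control of 0.31 in replicate 1 and -0.58 in replicate 2. Jak1 probe set 1384060_at had 402 and 291 in GDNF samples, against 386 and 383 in control samples. Its brighter probe set 1383478_at varied little, at 1189 and 1114 in GDNF samples and 1220 and 1197 in control samples. That Jak1 probe set was the 1 tested probe set of the family whose treatments did not overlap, with GDNF lower by a log2 difference of -0.07 (SE 0.10). Over the family, 7 of 15 probe sets had control samples within 0.1 of each other on the log2 scale and GDNF samples further apart than that pair (46.7%), as did 21.3% of all probe sets. Among those above the filter the shares were 5 of 11 (45.5%) and 29.1%. The 7 include Lif, with both GDNF samples above the control samples, and Jak1 1383478_at, with both below. The limit of 0.1 was not fixed in advance, so these shares are a description.

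Socs3, the feedback inhibitor that STAT3 induces, was dim and nearly flat. It had 25.5 with GDNF and 26.9 in control in replicate 1, against 21.2 and 22.4 in replicate 2. The numbers did not overlap, with a log2 difference of 0.25 (SE 0.27), and between treatments it was -0.08 (SE 0.29). Its mean was just above the filter.

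**Figure D2:**
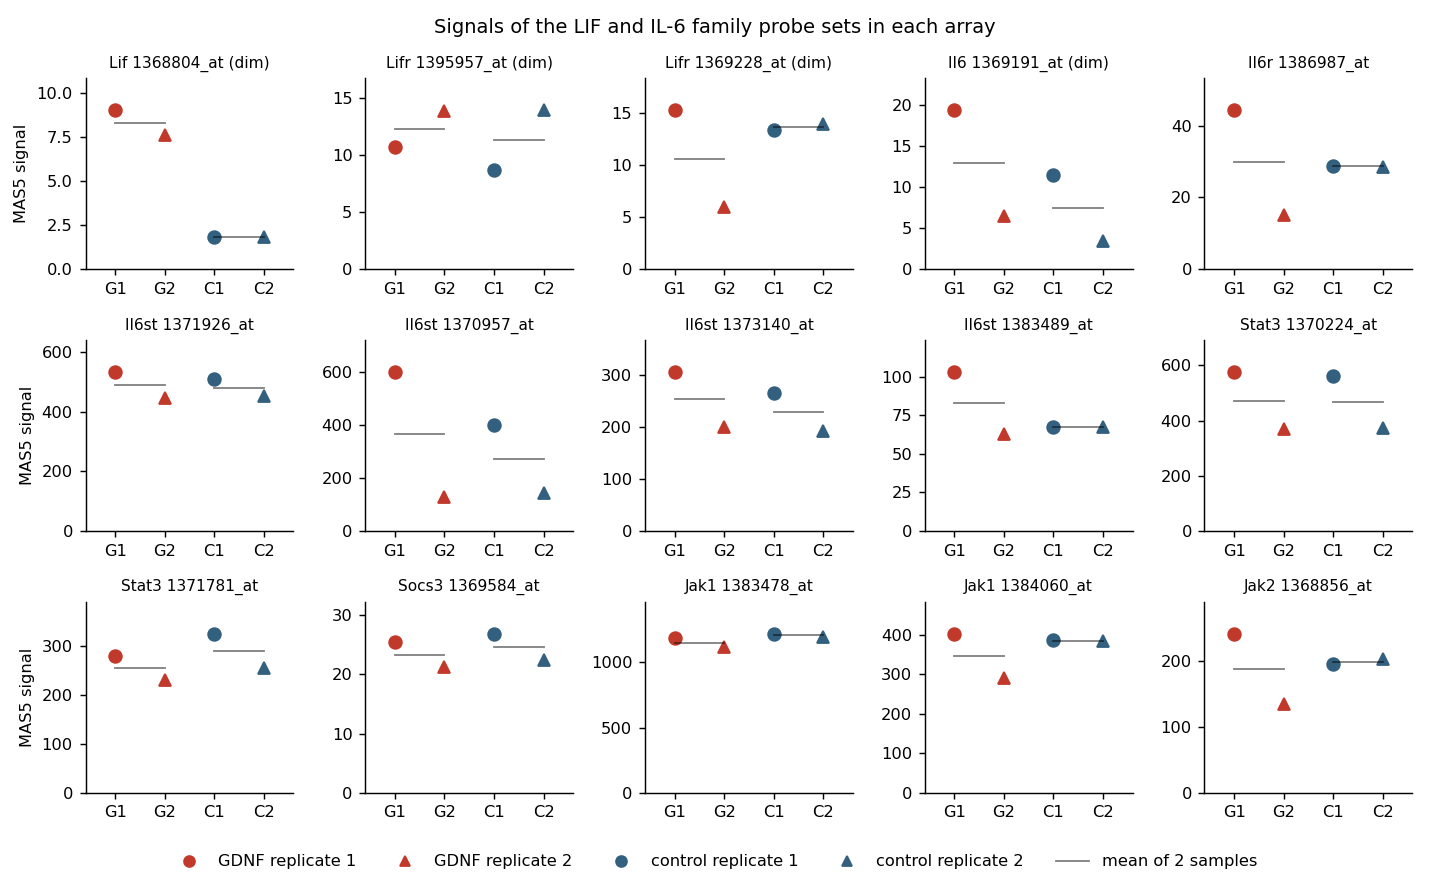
MAS5 signal (linear, each axis from 0) of the 15 probe sets of the family in each array, GDNF samples in red and control samples in blue, replicate 1 as circles and replicate 2 as triangles, with a line at the mean of each treatment. In Il6st 1370957_at and Stat3 1370224_at the circles lie above the triangles in both treatments, and in Lif both GDNF samples (9.0 and 7.6) lie above both control samples (1.8 and 1.8).

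Compared by treatment, the family as a whole was split in direction, with every Il6st probe set on the higher side. Of its 11 tested probe sets, 5 averaged higher and 6 lower with GDNF, with a median log2 difference of -0.07, where 48.5% of all probe sets tested were higher and their median was -0.01. Without Il6st, 1 of the other 7 was higher (14.3%) and 6 were lower, with a median of -0.13. The differences ran from -0.18 (SE 0.16) for Stat3 1371781_at to 0.26 (SE 0.25) for Il6st 1383489_at. In limma's fit, adjusted by Benjamini-Hochberg over all probe sets, 0 of the 11 and 0 of 18625 (0.0%) passed 0.05. At an unadjusted p under 0.05, 508 of all probe sets (2.73%) and 0 of the 11 passed. The treatments did not overlap in 1 of the 11 (9.09%), where 30.0% of all probe sets did not overlap, 13.4% with GDNF above control and 16.6% with GDNF below, as in that 1 Jak1 probe set.

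The direction of the treatment difference went with the replicate number. Within replicate 1, 8 of the 11 were higher with GDNF (median 0.07), and within replicate 2, 1 of 11 was (median -0.10). Without Il6st, 4 of the other 7 were higher within replicate 1 (57.1%) and 0 of 7 within replicate 2. Over all probe sets tested, 49.9% and 47.3% were higher with GDNF in replicate 1 and in replicate 2. The median over the family was -0.31 without GDNF replicate 1 and 0.28 without GDNF replicate 2. It was 0.05 without control replicate 1 and -0.14 without control replicate 2. Its sign thus depended on which sample of either group was kept. The difference between the 2 treatment effects was not tested, with 1 pair of samples in each number.

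**Figure D3:**
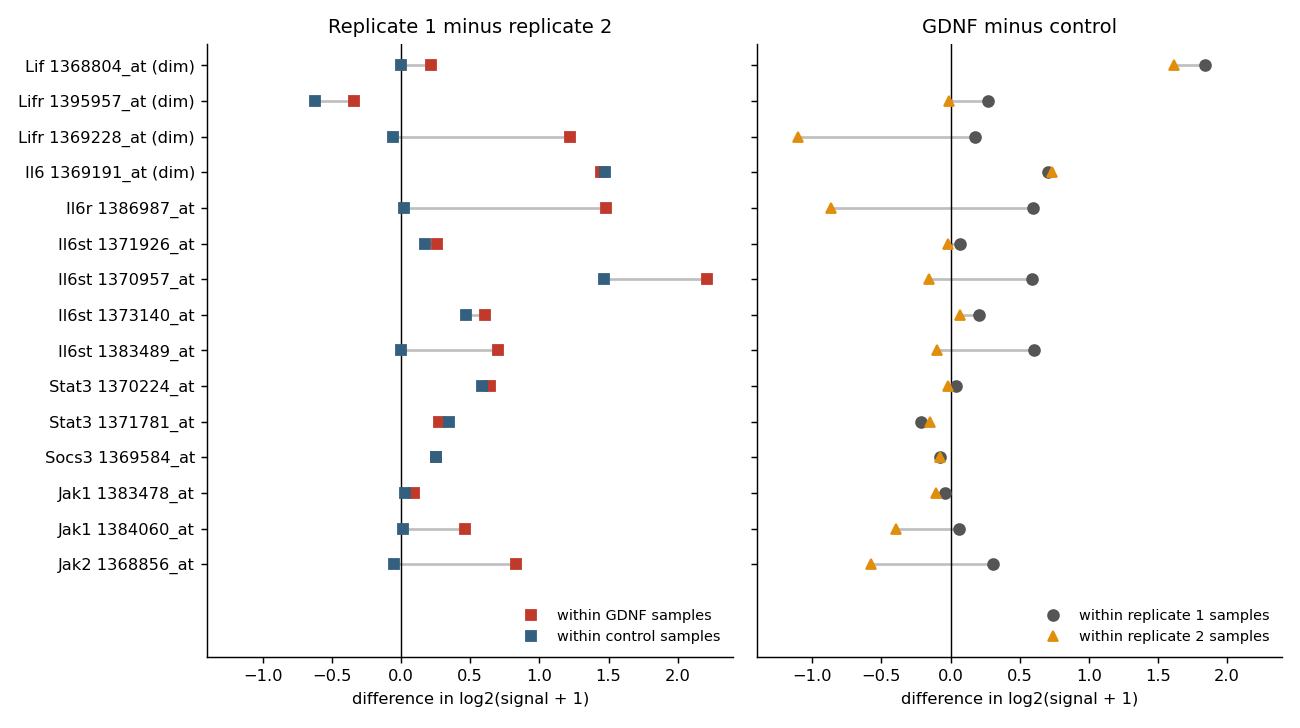
Difference in log2(signal + 1) for each probe set of the family. Left, replicate 1 minus replicate 2 within GDNF (red) and within control samples (blue), reaching 2.21 and 1.46 for Il6st 1370957_at. Right, GDNF minus control within replicate 1 (grey circles) and within replicate 2 (orange triangles), which lie on opposite sides of 0 for Il6r (0.60 and -0.86) and Jak2 (0.31 and -0.58).

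Compared by replicate number, all 11 probe sets tested were higher in replicate 1, with a median log2 difference of 0.35 and a range from 0.06 for Jak1 1383478_at to 1.84 for Il6st 1370957_at. Over all probe sets tested, 52.5% were higher in replicate 1 and the median was 0.01. With each array centred on its own median, 10 of the 11 were higher and Jak1 1383478_at turned to -0.04, while the median of all probe sets moved by -0.10. The replicate 1 samples lay above the replicate 2 samples in 8 of the 11 (72.7%), where 22.6% of all probe sets did, and below them in none, where 20.9% of all did. Without the 4 probe sets of Il6st, the other 7 were higher too, with a median of 0.31. The family was chosen with this comparison known, so these shares describe it and test nothing.

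All 11 were higher in replicate 1 within the GDNF samples, with a median of 0.60, and 9 of 11 within the control samples, with a median of 0.17. The control exceptions were Jak2, with 196 in replicate 1 against 203 in replicate 2, and Il6st 1383489_at, with 67.4 against 67.5. In limma's fit on the number, 86 of 18625 probe sets (0.462%) passed an adjusted p of 0.05, 70 higher (0.376%) and 16 lower (0.0859%) in replicate 1, as did Il6st 1370957_at and Stat3 1370224_at, 2 of the 11 (18.2%) and both higher. Since the family was selected on this comparison, nothing is read from that share. With each sample left out, the difference of the Il6st probe set lay between 1.54 and 2.13. That of Stat3 lay between 0.60 and 0.63 and did not pass without control replicate 2, without GDNF replicate 1 or without GDNF replicate 2. With eBayes run without the mean-variance trend, neither passed.

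**Figure D4:**
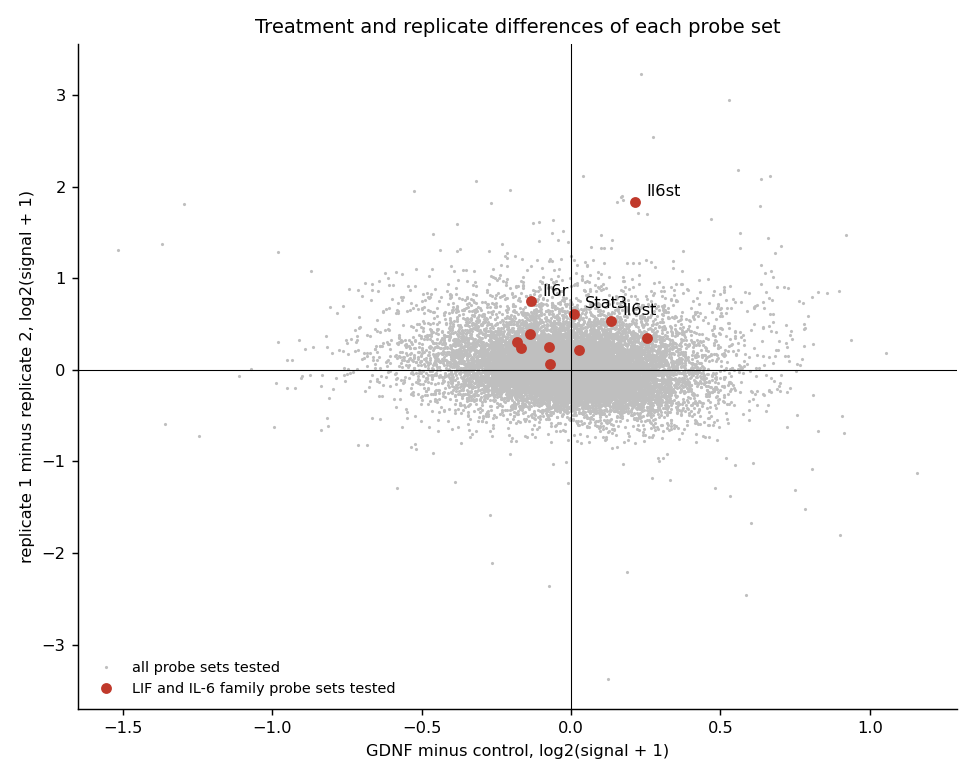
Each point is a probe set, placed by its treatment difference (GDNF minus control, x axis) and its number difference (replicate 1 minus replicate 2, y axis), both in log2(signal + 1). Grey points are all 18625 probe sets tested and red points the 11 of the family, all above 0 on the y axis and between -0.18 and 0.26 on the x axis.

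Markers of other cells were also compared by replicate number, and 0 of those tested passed limma's adjusted threshold. Of 14 macrophage and leukocyte markers tested, 13 were higher in replicate 1 (median log2 difference 0.21), 8 of them with no overlap, a state of 22.6% of all probe sets, and 4 passed limma's unadjusted p of 0.05, as 12.8% of all did. Their summed signal was 2270 with GDNF and 2162 in control in replicate 1, against 1657 and 1810 in replicate 2. Of 9 surface epithelium and mesothelium markers, 7 were higher in replicate 1 (median 0.13), and the sum was 7070 with GDNF and 8475 in control in replicate 1, against 6501 and 7417 in replicate 2. Of 8 adipocyte markers 2 were above the filter, Fabp4 and Lipe, and both were higher in replicate 1, with a sum of 86.4 with GDNF and 131 in control, against 29.2 and 65.7 in replicate 2. Among the others, Adipoq had 12.9 and 13.2 in replicate 1, against 3.8 and 12.7 in replicate 2, and Cidec was at or below 1.0 on every array. Of 7 oocyte markers, 6 were lower in replicate 1 (median -0.32), with a summed signal of 7517 with GDNF and 5867 in control, against 9207 and 7117 in replicate 2. Endothelial markers had 5 of 7 higher in replicate 1, granulosa markers 7 of 11, stromal markers 5 of 9 and smooth muscle markers 3 of 7. The part of these cells in the differences of Il6st and Stat3 was not tested, and in whole ovaries fewer cells of a type and less RNA per cell cannot be told apart.

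By treatment, too, 0 of the markers tested passed limma's adjusted threshold, and 2.73% of all probe sets had an unadjusted p under 0.05. All 7 oocyte markers tested averaged higher with GDNF (median log2 difference 0.39), with 3 at an unadjusted p under 0.05 and sums of 7517 and 9207 in GDNF samples, against 5867 and 7117 in control samples. Granulosa markers averaged higher in 8 of 11 (median 0.37), with sums of 6852 and 6517 in GDNF samples, against 6464 and 5939 in control samples. The 3 lower ones were Amhr2 (-0.25), Kitlg (-0.35) and Irx3 (-0.39). In limma's fit 6 of the 11 had an unadjusted p under 0.05, in both directions, with Kitlg and Irx3 among them. Surface epithelium markers averaged lower in 8 of 9 (median -0.22), endothelial markers in 7 of 7 (-0.11) and smooth muscle markers in 7 of 7 (-0.20). The part of these cells in the difference of Lif was not tested.

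Around the family, 5 lists held 63 further genes of the pathway, of which 47 were tested through their brightest probe set. In limma's fit over all probe sets 0 of the 47 passed the adjusted threshold by treatment or by replicate number, and at an unadjusted p under 0.05 there were 2 by treatment, where 2.73% of all probe sets passed, and 9 by number, where 12.8% of all, or 2388, did. The lists were written with earlier results of these data known.

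Of 23 tested genes that STAT3 is known to induce, 18 were higher and 5 lower in replicate 1, with a median of 0.26 against 0.01 over all probe sets. With median centring the list's median was 0.15. In 11 of the 23 both replicate 1 samples lay above both replicate 2 samples, a state that 22.6% of all probe sets showed. Fgg, a fibrinogen chain of the acute phase response, had a signal of 85.9 with GDNF and 105 in control in replicate 1, against 48.3 and 52.9 in replicate 2 (log2 difference 0.89, SE 0.19). The immediate early gene Fos had 165 with GDNF and 117 in control in replicate 1, against 78.5 and 88.5 in replicate 2 (0.73, SE 0.19). Both were thus higher in replicate 1 in each treatment. The lowest were Bcl2l1, a survival gene of the Bcl2 family (-0.50, SE 0.25), and the cyclin Ccnd1 (-0.10, SE 0.18). The dimmer probe sets of Ccnd1 went the other way (0.34 and 0.29). So did those of Bcl2l1 (0.56 and 0.02), which lay below the filter. The kinase Pim1, below the filter, had 9.4 with GDNF and 10.8 in control in replicate 1, against 3.4 and 6.0 in replicate 2, and Lbp had 19.9 and 12.9 in replicate 1, against 17.2 and 13.6 in replicate 2. By treatment 8 were higher and 15 lower with GDNF (median -0.05), from Tnfrsf12a, a receptor of the TNF family (-0.43, SE 0.17), and Nfkbiz, a regulator of NF-kB (-0.33, SE 0.23), to Rnd3 (0.27, SE 0.17) and Hp, the acute phase protein haptoglobin (0.37, SE 0.24).

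The other ligands of the family differed in brightness, with Osm and Il11 below the filter and Ebi3 the brightest, at 107 to 139. Of 9, 6 had a probe set and 4 were tested, 3 of them higher in replicate 1 (median 0.14) and 2 higher with GDNF (median -0.06). Clcf1, a ligand of the Cntfr receptor, had a log2 difference of 0.55 (SE 0.30) by replicate number and -0.42 (SE 0.36) by treatment, and Ebi3, a subunit of interleukin 27, had -0.24 (SE 0.16) and 0.13 (SE 0.18). Cntf had 0.19 by number and 0.02 by treatment, and Ctf1 0.08 and -0.14. Osm, the ligand of Osmr, had 3.7 and 8.9 in GDNF samples against 6.1 and 6.9 in control samples, and Il11 was at or below 0.9 on every array.

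The other receptors, kinases and STAT factors had medians near 0. Of the receptors, Il11ra1 had a treatment difference of -0.16 (SE 0.14) with GDNF below control in each pair of samples, and Il27ra -0.04 (SE 0.29), while their number differences were 0.06 and -0.10. Of 6 other JAKs and STATs tested, 3 were higher and 3 lower in each comparison. By treatment, Stat2, which acts in interferon signalling, had the lowest difference (-0.39, SE 0.18), next to Tyk2 (-0.12, SE 0.16), and Stat5b (0.35, SE 0.31) and Stat6 (0.18, SE 0.26) the highest. The other tested probe set of Stat2 had -0.12 (SE 0.20), with overlapping treatments. By number, Stat5a had 87.9 with GDNF and 85.5 in control in replicate 1, against 56.1 and 67.5 in replicate 2 (0.49, SE 0.19), Stat2 had 0.17, Jak3 -0.20 and Stat6 -0.11.

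Of the inhibitors tested, 5 of 12 were higher in replicate 1, with a median of -0.02. The inhibitors Socs1 and Socs2 lay below the filter, and both had replicate 1 above replicate 2. So did 24.7% of all probe sets below the filter. Socs2 had 38.0 with GDNF and 14.7 in control in replicate 1, against 5.3 and 5.6 in replicate 2. Socs1 had 12.4 and 16.6 in replicate 1, against 4.4 and 11 in replicate 2. The phosphatase Ptpn1 (0.25, SE 0.19) and Cish (0.18, SE 0.22) were highest in replicate 1, and the phosphatase Ptpn2 (-0.22, SE 0.10) and Pias4 (-0.17, SE 0.18) lowest. By treatment 4 were higher and 8 lower with GDNF (median -0.06). Pias1, which inhibits STAT binding to DNA, had 239 and 215 in GDNF samples, against 162 and 189 in control samples (0.37, SE 0.14), and Pias4 had 0.13. Ptpn6, a phosphatase of blood cells, had 51.0 and 47.9 in GDNF samples, against 65.7 and 65.7 in control samples (-0.40, SE 0.19), and Cish had -0.10. The groups of Pias1 and of Ptpn6 did not overlap, but this was common in the list. Of the 12 tested, 3 had both GDNF samples above both control samples and 5 had them below. Over all probe sets tested, 13.4% and 16.6% did. The counts rest on the brightest probe set of each gene. Socs7, counted as above, had a second tested probe set with GDNF below (-0.26), and that of Pias1 was again above (0.27). The second tested probe sets of Socs5 and Pias2, both counted as below, overlapped. Of the 12, 0 passed the adjusted threshold.

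**Figure D5:**
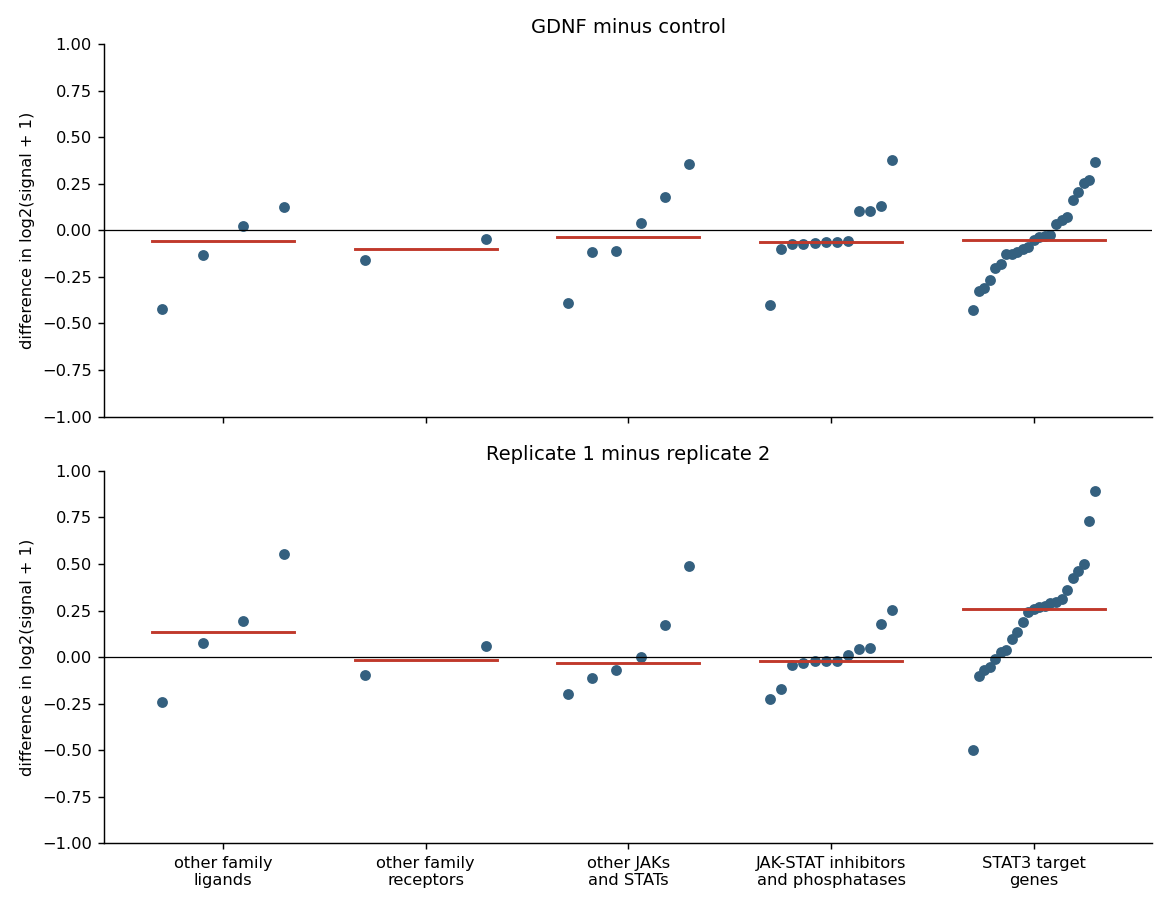
Each point is a tested gene of the 5 lists, with its difference in log2(signal + 1) between treatments (top) and between replicate numbers (bottom), and red lines are list medians. The STAT3 target genes have a median of -0.05 by treatment and 0.26 by replicate number, and the inhibitors -0.06 and -0.02.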

How the data were processed

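The authors deposited 1 linear intensity (signal) per probe set and array. MAS5 is the program named in the submitters' processing notes, without a version. The table held 31099 probe sets, and 57 Affymetrix control probe sets were left out. Names came from GEO's platform annotation, in which 20826 probe sets had 1 gene symbol, 436 several and 9780 none. Signals were converted to log2(signal + 1), which understates the difference of dim genes, and probe sets with a mean at or above the 40th percentile were fitted in R 4.3.3 using lmFit and a trended eBayes (limma 3.58.1), by treatment and, in a second fit, by replicate number, with 2 residual degrees of freedom each. P-values were two-sided and adjusted by Benjamini-Hochberg over all probe sets tested. Standard errors are limma's moderated ones. The fit was tested on simulated data. The number of arrays limits the precision. Members and lists were chosen with earlier results of these data known. Named list genes were up to 2 highest and 2 lowest per list and comparison. Named neighbours were the 5 tested probe sets closest to the member with the widest range. Promoter windows are RefSeq's, GRCr8, held for 8 of 10 members. The alternatives were median centring, quantile normalization, eBayes without trend, a pseudocount of 16, a filter at the 60th percentile or none, the other factor as a further term, and each sample left out. Those for the 5 lists were added after seeing the data.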

Additional observations from a re-analysis of the deposited data

How the results depend on the processing

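By treatment, limma called 0 probe sets in the fit with group alone and under 10 alternatives. With the replicate number as a block it called 8, none of them in the family. Same-numbered samples deviated together (r = 0.32 across probe sets), but 2 pairs cannot show that the numbers pair the samples. By replicate number, 86 calls became 13 without a filter, 2 without the trend, 429 with treatment as a further term, 224 with median centring, and 11 to 251 with 1 sample left out (11 without GDNF replicate 2, 251 without control replicate 1). The share of calls higher in replicate 1 was 81.4%, and 51.8% with median centring. The family's 2 calls became 1 without a filter, 0 without the trend and 3 with treatment as a further term.

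With 1 sample left out, the family's median ran from -0.31 to 0.28 by treatment and from 0.24 to 0.54 by number. By treatment, list medians then ran from -0.17 to 0.028 (ligands), -0.032 to 0.13 (JAKs and STATs), -0.065 to -0.024 (inhibitors) and -0.27 to 0.071 (STAT3 targets). By number they ran from -0.12 to 0.079 (JAKs and STATs), -0.044 to 0.0061 (inhibitors) and 0.13 to 0.38 (STAT3 targets). Filters changed which genes were tested: with the 60th percentile the medians by treatment were 0.13 for ligands, -0.16 for receptors and -0.12 for JAKs and STATs, and with no filter -0.16 for receptors and -0.11 for JAKs and STATs. By number, ligands had -0.0010 with no filter, -0.24 at the 60th percentile and 0.031 with median centring. Receptors had -0.10 with quantile normalization and -0.12 with median centring, JAKs and STATs 0.17 at the 60th percentile, -0.13 with quantile normalization and -0.14 with median centring, and inhibitors -0.13 with median centring.

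Values of single list genes by treatment were wide even where the direction stayed: with 1 sample left out, Hp ran from 0.084 to 0.65, Rnd3 from 0.076 to 0.46, Nfkbiz from -0.60 to -0.056, Clcf1 from -0.73 to -0.11, Ctf1 from -0.25 to -0.021 and Stat6 from 0.0026 to 0.35. By number, Bcl2l1 ran from -0.83 to -0.16, Jak3 from -0.33 to -0.072 and Ccnd1 from -0.20 to -0.0029. Directions of others turned as follows. By treatment, with 1 sample left out, Cntf ran from -0.093 to 0.13, Tyk2 from -0.24 to 0.0022, Cish from -0.25 to 0.054, Il27ra from -0.093 to 0.0039, Ebi3 from -0.064 to 0.32 and Pias4 from -0.061 to 0.33. By number, Il11ra1 ran from -0.068 to 0.19, Stat6 from -0.32 to 0.10, Ctf1 from -0.065 to 0.22, Stat2 from -0.12 to 0.46 and Pias4 from -0.34 to 0.0030. Median centring turned Il11ra1 to -0.042 and Ctf1 to -0.027, and quantile normalization turned Ctf1 to -0.011. Fgg and Fos passed by number with treatment as a further term (limma adjusted p = 0.0252 and 0.0399), and Fos without control replicate 1 (limma adjusted p = 0.0217). The cause of these changes was not tested.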
